A study of Canis lupus familiaris with 7 samples.

Results

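The 10 growth factor receptor kinase genes MET, AXL, EGFR, ERBB2, FGFR1, FGFR2, PDGFRA, PDGFRB, KIT and RET were read in 7 canine osteosarcomas, malignant bone tumors whose cells lay down bone matrix. Every non-control probe carrying the symbol of such a gene was taken, which gave 22 of the 43603 probes of the array and 10 of its 13065 named genes. RNA of whole primary tumor tissue from pet dogs was labeled with a single dye and hybridized to an Agilent canine array, with 1 array for each tumor. The comparison asked which genes differ between 4 tumors labeled DLG2 deleted and 3 tumors labeled DLG2 wild type, DLG2 being a scaffold protein gene. The dogs of the deleted group were a German Shepherd, Collie and other mix aged 8 years, a Rottweiler mix aged 9, a Greyhound aged 6 and a Great Pyrenees aged 7, here deleted tumors 1 to 4. The dogs of the wild-type group were a Boxer aged 12 years, a Labrador Retriever mix aged 10 and a Bull Mastiff aged 8, here wild-type tumors 1 to 3. The sex label was MC for deleted tumors 1 and 3 and wild-type tumor 3, and FS for the other dogs. No treatment is named in the labels, and breed was different for every dog, so that breed and tumor cannot be told apart.

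Receptor tyrosine kinases are cell surface proteins that pair up when a growth factor binds outside the cell, phosphorylate each other inside it, and pass the signal through adaptor proteins to the RAS and ERK and the PI3K and AKT routes. In bone, FGFR1 and FGFR2 act in the growth and maturation of osteoblasts, the cells that make bone, and PDGFRA and PDGFRB mark connective tissue and vessel-wall cells. MET, AXL, EGFR, ERBB2, KIT and RET are best known as drivers or drug targets in other tumors. Receptor activity depends on phosphorylation and protein, neither of which an RNA array reads.

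Of the 22 probes, 19 were well above background on at least 3 arrays and were kept, and 15 were so on all 7. The other 3, KIT A_11_P053861, RET A_11_P051566 and RET A_11_P054076, were not well above background on any array. The 3 genes ERBB2, FGFR1 and PDGFRA had 1 probe, and the other 7 genes had several. Where a single value for a gene was needed, the kept probe with the highest mean was used. Values are log2 intensities, and the level of a single probe is set only against the same probe in another tumor. A list sum adds the linear intensities of different probes, so its brightest probes weigh most. The median deviation of a list is the median over its genes of the log2 deviation from each gene's mean over the tumors.

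Probe sequences are shown for genes whose probes tracked each other across the tumors, for a KIT probe that was not kept and for PDGFRA, each 5′ to 3′ in lower case. Positions are those of the array files on canFam2. The FGFR2 pair is shown by the first 30 of their 60 bases, and the others whole.
FGFR2 A_11_P050201, chr28:34303631-34303690: catgcaacatgaacgcagattacactgatt
FGFR2 A_11_P051586, chr28:34305080-34305139: atgccttacgaaccatgccttcctcagtat
EGFR A_11_P0000027549, chr18:9028083-9028142: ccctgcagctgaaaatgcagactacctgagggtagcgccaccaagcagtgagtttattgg
EGFR A_11_P072691, chr18:9024218-9024277: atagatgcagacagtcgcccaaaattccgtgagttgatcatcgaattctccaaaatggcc
KIT A_11_P084686, chr13:50120229-50120401: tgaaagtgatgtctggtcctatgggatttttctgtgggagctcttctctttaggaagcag
KIT A_11_P053861, chr13:50093321-50107395: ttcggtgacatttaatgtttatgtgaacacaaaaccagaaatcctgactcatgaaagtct
PDGFRA A_11_P0000020877, chr13:49705792-49705851: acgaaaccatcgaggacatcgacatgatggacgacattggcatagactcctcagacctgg
The PDGFRA probe lies 387470 bases before the first KIT probe on chromosome 13. The span of the KIT probes is longer than their 60 bases, so their bases match the genome in separate blocks. No canFam2 gene annotation was used here, so the exon, intron or untranslated region under each probe is not given. For the 212 pairs of probes from different genes of the group, each probe was slid along the other without gaps. At the best shift of a pair, at most 28 of 60 bases matched. That was so for EGFR A_11_P000002178 with PDGFRA A_11_P0000020877 and for KIT A_11_P084686 with RET A_11_P0000017560.

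Arrays of wild-type tumors 1 and 2 correlated at r = 0.987 over all kept probes, and all other pairs between 0.936 and 0.966. Their labels give different dogs, so they were kept as 2 tumors. Counted as 1, they gave differences of -1.15 for FGFR2 in place of -1.30, 0.499 for PDGFRA in place of 0.721 and 0.644 for EGFR in place of 0.433, with no receptor kinase probe called. Deleted tumors 2 and 3 and wild-type tumor 2 shared a slide, and every other tumor had a slide of its own. The array headers give the time of the Feature Extraction run but name no session. Arrays were put into 2 sessions here by whether that hour was before or after noon. Session 1 held wild-type tumor 2 and deleted tumors 2, 3 and 4. The DLG2 probe read 10.37, 11.44, 10.51 and 10.84 in deleted tumors 1 to 4 and 10.91, 12.03 and 11.75 in wild-type tumors 1 to 3. Its levels overlapped between the groups, with a difference, deleted minus wild-type, of -0.77 ± 0.35 (SE, adjusted p = 0.71, limma). The probe lies at chr21:18338004-18338063 on canFam2, outside the focal canine deletion that the study names if its positions, given with no build, are on canFam2 too. It may therefore check nothing about the labels, and the deletion ends of the single tumors were not used here. As to the labeled tissue, the osteoblast genes ALPL, BGLAP, COL1A1 and RUNX2 were well above background on all 7 arrays. The markers SP7, IBSP, SPP1 and DMP1 were not analysed, having no probe under their symbol.

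None of the 19 kept receptor kinase probes was called different between the groups at an unadjusted p below 0.05 with an adjusted p below 0.1. The same fit (limma, adjusted over all 32309 kept probes) called 0, or 0.0%, of all probes. By the unadjusted p alone, 0 of the 19 receptor kinase probes were below 0.05, against 7.27% of all kept probes. The smallest unadjusted p among the receptor kinase probes was 0.0572, and the smallest adjusted p was 0.699, both for FGFR2. Means were higher in the deleted tumors for 11 probes and lower for 8, and with 1 probe for each gene 5 genes were on either side. The absolute difference was below 0.25 for 5 of the 10 genes, MET, AXL, ERBB2, FGFR1 and RET. The added offset of the background correction narrows such values, and with the processed intensity of the scanner software, scaled to the 75th percentile, only MET and RET, 2 of 10, stayed below it. With 7 tumors the intervals were wide: those of FGFR2, EGFR, PDGFRA, PDGFRB and KIT all included 0 and reached past 1 log2 unit. Nothing in the labels says how the tissue pieces were taken, and the p-values measure the spread between these 7 tumors only.

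**Figure D1:**
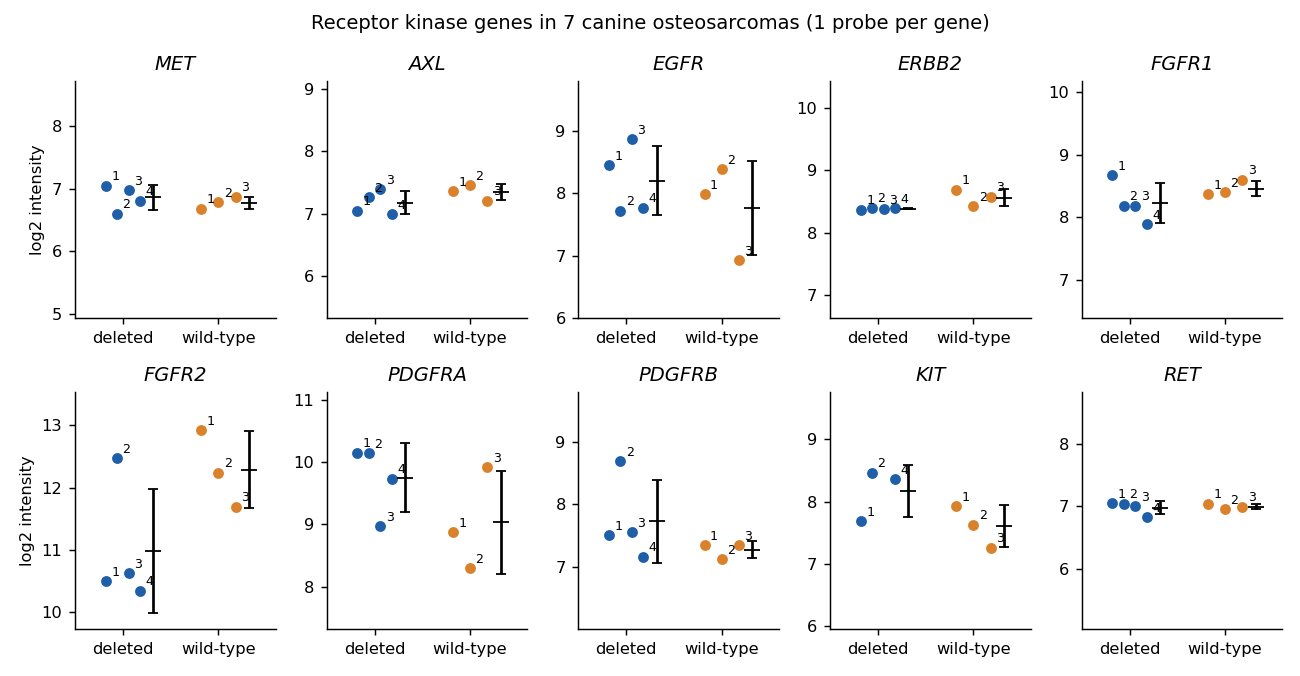
Log2 intensity (vertical axis) of the highest-mean probe of each of the 10 receptor kinase genes in 4 deleted tumors (blue, numbered) and 3 wild-type tumors (orange, numbered), with the mean and SD of each group as black bars. Every panel spans the same number of log2 units, and FGFR2 varied over 2.57 units while RET varied over 0.23.

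The genes varied by graded amounts across the tumors. From the lowest to the highest tumor, FGFR2 spanned 2.57 log2 units, EGFR 1.94, PDGFRA 1.85, PDGFRB 1.57 and KIT 1.2. FGFR1 spanned 0.78, AXL 0.48, MET 0.45, ERBB2 0.31 and RET 0.23. Over all 11115 genes with a kept probe the median range was 0.8 and the 90th percentile 1.78, so that FGFR2, EGFR and PDGFRA stood above that percentile and 5 genes below the median. This order depended on the background correction. In the processed intensity EGFR A_11_P0000027549 spanned 3.44, FGFR2 A_11_P050201 2.76, PDGFRB A_11_P0000020085 2.71 and PDGFRA 2.38, so that EGFR passed FGFR2 and PDGFRB passed PDGFRA. MET A_11_P053331 spanned 1.78, AXL A_11_P0000028579 1.59 and RET A_11_P0000030504 1.03, while ERBB2 still spanned only 0.53.

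FGFR2, a receptor for fibroblast growth factors that is active in bone-forming cells, had the largest difference of the 10 genes and, in the reported setting, the widest range. Its highest-mean probe A_11_P050201 read 10.50, 12.47, 10.63 and 10.35 in deleted tumors 1 to 4 and 12.92, 12.24 and 11.69 in wild-type tumors 1 to 3. Deleted tumors 1, 3 and 4 lay below every wild-type tumor, whereas deleted tumor 2 lay among the wild-type tumors, so the groups overlapped. The mean was 10.99 ± 0.99 (SD, n = 4) against 12.29 ± 0.61 (SD, n = 3), 2.46-fold lower in the deleted tumors. The log2 difference was -1.30 ± 0.57 (SE, 95% interval -2.65 to 0.05), with an adjusted p of 0.699 in limma and p = 0.171 in the two-sided exact permutation test. That test cannot go below 0.0571 with 4 against 3 tumors. The second probe, A_11_P051586, read 8.51, 10.63, 9.01 and 8.77 against 10.66, 10.2 and 9.82, a difference of -0.99 ± 0.52 (SE). Both FGFR2 probes ranked deleted tumor 2 and wild-type tumor 1 highest, and they correlated at r = 0.98 over the 7 tumors.

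The FGFR2 difference moved with how the tumors were modeled. It was -0.283 with age as a covariate and -0.696 with slide as a block, which compares only wild-type tumor 2 with deleted tumors 2 and 3. It was -1.43 with the extraction session as a term, -1.79 without deleted tumor 2, which then left the groups separate, and -0.983 without wild-type tumor 1. All 5 osteoblast genes with a kept probe, of 10 listed, had a lower mean in the deleted tumors (median -0.82; 4 of 5 lower with processed intensity under 75th percentile scaling), 0 of them at an unadjusted p below 0.05. The summed intensity of the osteoblast list lay between 24454 and 165272 in the deleted tumors and between 75610 and 144433 in the wild-type tumors. The highest osteoblast sum was in deleted tumor 4, with the lowest FGFR2. The lowest was in deleted tumor 2, with the highest FGFR2 of its group. By median deviation wild-type tumors 3 (1.07) and 1 (0.65) stood above deleted tumor 4 (0.49), and deleted tumor 2 was again lowest (-1.38). Cartilage genes summed to 15865 in deleted tumor 2 and to 39265 in deleted tumor 3, where FGFR2 was low. In the other 5 tumors they summed to 1849 to 2951. The median deviation of cartilage genes was 2.26 in deleted tumor 2, 0.73 in deleted tumor 3 and -0.92 to -0.24 in the other 5. The part of these cell types in the FGFR2 level was not tested. In whole tissue, fewer cells of a type and less RNA for each cell cannot be told apart.

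FGFR1, the sister receptor, varied less, over 0.78 log2 units. Its values were 8.67, 8.18, 8.18 and 7.89 in the deleted tumors and 8.37, 8.4 and 8.6 in the wild-type tumors. Deleted tumor 1 was the highest and deleted tumor 4 the lowest of all 7, and the difference of -0.22 ± 0.19 (SE, adjusted p = 0.881, limma) was within the spread of the deleted tumors.

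**Figure D2:**
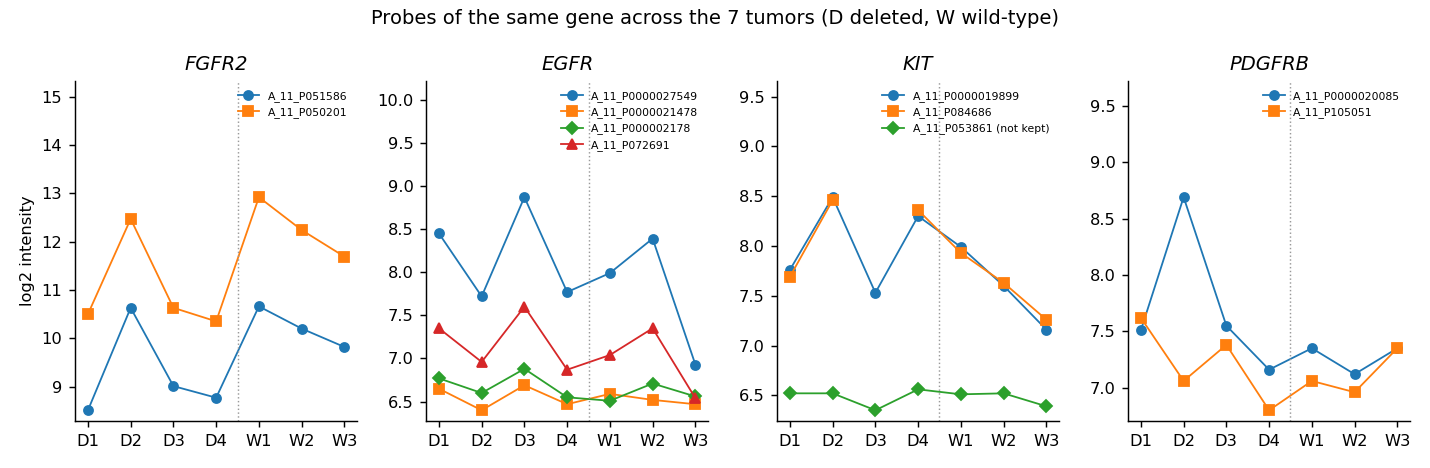
Log2 intensity (vertical axis) of every probe of FGFR2, EGFR, KIT and PDGFRB in deleted tumors D1 to D4 and wild-type tumors W1 to W3, with 1 line for each probe. The lines run together for FGFR2, for EGFR A_11_P0000027549 and A_11_P072691 and for both kept KIT probes, and part at D2 for PDGFRB.

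PDGFRA, the receptor for PDGF-A and PDGF-C found on mesenchymal cells, had the largest difference in the other direction. It read 10.15, 10.14, 8.97 and 9.73 in deleted tumors 1 to 4 and 8.87, 8.3 and 9.92 in wild-type tumors 1 to 3. Deleted tumor 3 and wild-type tumor 3 were each closer to the other group than to their own, and the groups overlapped. The mean was 9.75 ± 0.55 (SD, n = 4) against 9.03 ± 0.82 (SD, n = 3), a difference of 0.72 ± 0.45 (SE, 95% interval -0.34 to 1.78). The adjusted p was 0.805 in limma and the exact permutation p was 0.229. The difference was 1.26 with slide as a block, 1.17 without wild-type tumor 3, which left the groups separate, and 0.357 without wild-type tumor 2.

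PDGFRB, which pericytes and fibroblasts carry, gave a different picture with each of its 2 probes. A_11_P0000020085 read 7.51, 8.69, 7.55 and 7.16 in the deleted tumors and 7.35, 7.12 and 7.35 in the wild-type tumors, a difference of 0.45 ± 0.35 (SE, adjusted p = 0.864, limma). A_11_P105051 read 7.62, 7.06, 7.38 and 6.8 against 7.06, 6.96 and 7.35, a difference of 0.09 ± 0.21 (SE). Deleted tumor 2 was by far the highest with the first probe and in the middle with the second, and the probes correlated at r = 0.08 (Spearman's rho = 0.71) over the 7 tumors. Without deleted tumor 2 the difference of the first probe was 0.131, and with slide as a block it was 0.998. A high PDGFRB level in deleted tumor 2 therefore rested on 1 probe.

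Fibroblast and pericyte genes are given beside both PDGF receptors. The summed intensity of the fibroblast list, 7 of 8 genes with a kept probe, lay between 102643 and 220826 in the deleted tumors. It lay between 52611 and 147822 in the wild-type tumors. Sum and median deviation parted in deleted tumor 4, with a sum of 162049 and the lowest median deviation of all tumors (-0.7). The only gene of that list at an unadjusted p below 0.05 was LUM, a matrix proteoglycan, with a difference of 1.03 ± 0.28 (SE, adjusted p = 0.514, limma). For the pericyte list, 7 of 9 genes with a kept probe, the sums were 5154 to 21218 against 5885 to 8578. All 7 pericyte genes had a higher mean in the deleted tumors, 0 of them at an unadjusted p below 0.05, and 4 of 7 were higher relative to all probes under normexp with 75th percentile scaling. Deleted tumor 3 had the highest sum of both lists and the lowest PDGFRA of its group. The part of these cells in the PDGFRA and PDGFRB levels was not tested.

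KIT, the receptor for stem cell factor and a target in canine mast cell tumors, was read by 2 kept probes that agreed closely. A_11_P084686 read 7.69, 8.46 and 8.36 in deleted tumors 1, 2 and 4, its value in deleted tumor 3 being left out for an outlier mark, and 7.93, 7.63 and 7.26 in the wild-type tumors. A_11_P0000019899 read 7.76, 8.49, 7.53 and 8.3 against 7.99, 7.6 and 7.16. Deleted tumors 2 and 4 were the highest 2 tumors with either probe, and deleted tumors 1 and 3 lay among the wild-type tumors. The difference was 0.56 ± 0.27 (SE, adjusted p = 0.744, limma, 3 against 3 tumors) with the first and 0.44 ± 0.29 (SE, adjusted p = 0.834, limma, 4 against 3) with the second. The correlation between the probes was r = 0.99 over 6 tumors. The difference of the first was 0.837 with slide as a block.

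Mast cells carry much KIT, and 3 of the 8 mast cell genes had a kept probe: CPA3, CMA1 and FCER1A. They were well above background on only 4, 5 and 6 of the 7 arrays. All 3 were highest in wild-type tumor 2, at 7.56, 7.42 and 8.56. KIT there was 7.63 and 7.6, below deleted tumors 2 and 4. The list's summed intensity was 284 to 403 in the deleted tumors and 300 to 737 in the wild-type tumors. The part of mast cells in the KIT level was not tested. The mast cell tryptases TPSAB1 and TPSB2 had no probe under their symbol and were not analysed.

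EGFR, the receptor for epidermal growth factor and its relatives, varied widely within both groups. Its highest-mean probe A_11_P0000027549 read 8.45, 7.72, 8.87 and 7.77 in the deleted tumors and 7.99, 8.39 and 6.93 in the wild-type tumors. Deleted tumor 3 was highest and wild-type tumor 3 lowest, and the groups overlapped almost fully. The difference was 0.43 ± 0.43 (SE, 95% interval -0.58 to 1.45, adjusted p = 0.902, limma). It was 0.0117 without wild-type tumor 3 and -0.0978 with slide as a block. A_11_P072691, 7.35, 6.96, 7.6 and 6.87 against 7.04, 7.35 and 6.54, correlated with it at r = 0.99 and gave a difference of 0.22 ± 0.25 (SE). The other 2 EGFR probes were dim, within 6.4 to 6.88 in every tumor. A_11_P0000021478 was well above background in 2 deleted and 1 wild-type tumor, and A_11_P000002178 in 2 deleted and all 3 wild-type tumors. Among epithelial genes, 3 of 8 had a kept probe, with summed intensities of 325 to 566 in the deleted and 384 to 633 in the wild-type tumors. EPCAM, an epithelial adhesion molecule, read 8.44, 6.94, 6.64 and 6.74 in the deleted and 8.48, 8.73 and 7.35 in the wild-type tumors. It was low in deleted tumor 3, where EGFR was highest, and high in deleted tumor 1 and wild-type tumor 2, where EGFR came next. EPCAM was also high in wild-type tumor 1 (8.48), where EGFR was 7.99. The other kept epithelial genes varied little: KRT19 lay between 6.87 and 7.3. CLDN4 lay between 6.52 and 6.67 and was well above background on only 3 arrays. The part of epithelial cells in the EGFR level was not tested.

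ERBB2, which has no known ligand and works by pairing with the other ERBB receptors, was nearly level. It read 8.37, 8.4, 8.38 and 8.39 in the deleted tumors and 8.69, 8.42 and 8.58 in the wild-type tumors. It was the only gene of the group whose groups did not overlap, yet deleted tumor 2 and wild-type tumor 2 were only 0.02 apart. Replicate spots of the same probe on an array differed by a median SD of 0.08 to 0.11, so this separation is smaller than the spot-to-spot error. Among the 18 receptor kinase probes with a value in all 7 tumors that is 1, or 5.56%, against 8.14% of all kept probes. The difference was -0.18 ± 0.09 (SE, adjusted p = 0.763, limma), the exact permutation p was 0.0571, the lowest that test can give, and the difference was -0.0303 with slide as a block.

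MET, the receptor for hepatocyte growth factor, was dim and close in all tumors. A_11_P053331 read 7.05, 6.6, 6.98 and 6.81 in the deleted tumors and 6.68, 6.78 and 6.87 in the wild-type tumors, a difference of 0.08 ± 0.13 (SE, 95% interval -0.23 to 0.40). The second probe, A_11_P0000019689, differed by -0.05 ± 0.14 (SE), so that the sign changed with the probe.

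AXL, the receptor for GAS6 and protein S, read 7.05, 7.26, 7.39 and 6.99 in the deleted tumors and 7.36, 7.46 and 7.21 in the wild-type tumors with A_11_P0000028579. Its difference of -0.17 ± 0.13 (SE, 95% interval -0.48 to 0.14) was within the spread of the tumors, and the second probe, A_11_P193838, gave -0.05 ± 0.12 (SE). Relative to the shift of all probes, AXL differed by 0.02 under normexp with 75th percentile scaling.

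RET, the receptor of the GDNF family, was at the edge of detection. A_11_P0000030504 was well above background in all tumors and read 7.05, 7.04, 7.0 and 6.82 against 7.04, 6.95 and 6.99, a difference of -0.01 ± 0.09 (SE, 95% interval -0.24 to 0.21). A_11_P0000017560 was well above background in only 3 tumors, and its other 2 probes in none. Its kept probes correlated at r = -0.33, and no order of the tumors can be read from them.

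**Figure D3:**
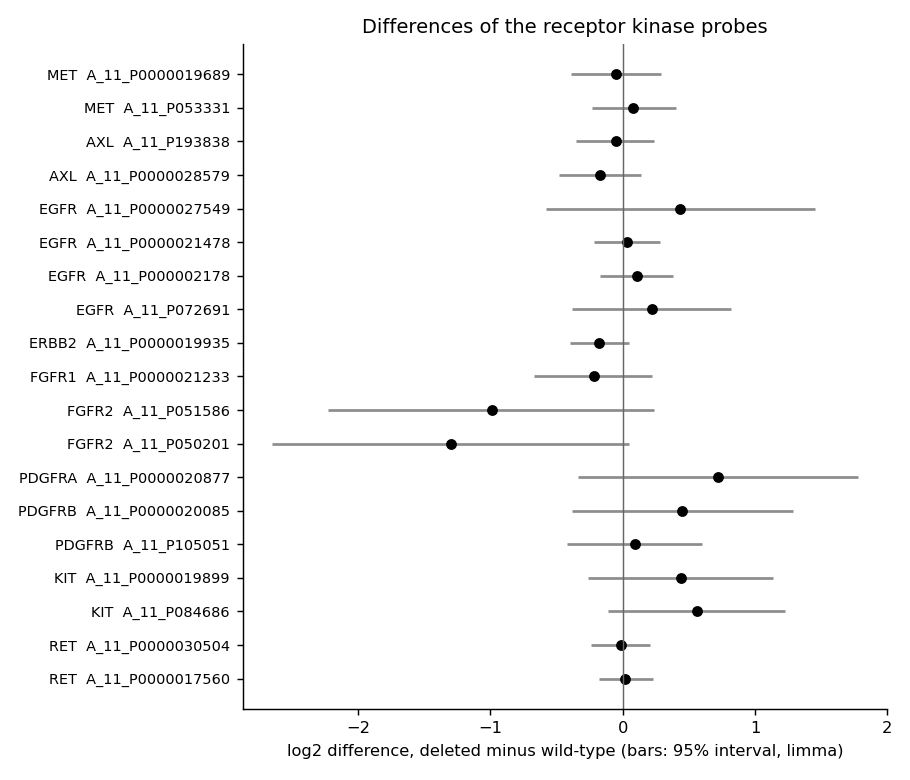
Log2 difference, deleted minus wild-type (horizontal axis), of the 19 kept receptor kinase probes, 1 line for each probe, with its 95% interval from limma. All intervals include 0, and they are widest for FGFR2, where that of A_11_P050201 runs from -2.65 to 0.05.

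The genes most like the 3 widest-ranging receptors were sought among 11079 genes by Pearson's r over the 7 tumors, as a description. For FGFR2 they were PPP5C, a protein phosphatase, at r = 0.972, SEC23B, a vesicle coat protein, at 0.967 and SNRPF, a splicing protein, at 0.967. PPP5C read 11.72, 12.22, 11.85 and 11.76 in the deleted tumors and 12.48, 12.17 and 12.18 in the wild-type tumors, the same high value in deleted tumor 2 on a narrower scale. For EGFR they were SPTLC2, an enzyme of sphingolipid synthesis, at 0.99, EGFLAM, a matrix protein, at 0.973 and VCAM1, an adhesion molecule, at 0.969. EGFLAM read 10.02, 8.49, 10.84 and 8.29 against 9.59, 9.63 and 7.23. For PDGFRA they were RNPC3, a component of the minor spliceosome, at 0.965, SSBP1, a mitochondrial DNA-binding protein, at 0.943 and FAM114A2 at 0.938. Each r rests on 7 points and was picked as among the highest of all genes searched, and the points share their slides, ages and cell content.

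Ligands of the 10 receptors were the next group: 15 of 36 had a kept probe. Of these 10 had a higher and 5 a lower mean in the deleted tumors, 0 at an unadjusted p below 0.05, and the median difference was 0.11. Over all genes with 1 probe each, 52.8% were higher in the deleted tumors, 7.59% had an unadjusted p below 0.05, and the median difference was 0.0135. HGF, the ligand of MET, read 6.92, 7.34, 7.76 and 7.0 against 6.91, 7.71 and 6.79. Deleted tumor 3 and wild-type tumor 2, the highest for HGF, shared a slide. KITLG, stem cell factor and the ligand of KIT, read 7.76, 7.51, 8.67 and 8.35 against 7.39, 7.74 and 8.27, a difference of 0.27 ± 0.33 (SE). It was highest in deleted tumor 3, where KIT was the lowest of its group.

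Among the PDGF ligands, PDGFD, which acts mainly on PDGFRB, read 10.43, 9.16, 10.16 and 12.06 against 10.16, 9.8 and 10.51. Deleted tumor 4 stood above and deleted tumor 2 below all others. PDGFRB A_11_P0000020085 was the reverse, highest in deleted tumor 2 and lowest of its group in deleted tumor 4. The second PDGFRB probe, A_11_P105051, was also lowest in deleted tumor 4 (6.8) but in the middle in deleted tumor 2 (7.06). PDGFA, PDGFB and PDGFC differed by -0.12, 0.03 and -0.18 on average. PDGFC was highest in wild-type tumor 3, at 7.81 against 6.6 to 7.22 elsewhere.

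For the FGF receptors, FGF7 and FGF10 are ligands of the epithelial form of FGFR2, and FGF9 and FGF18 act in bone and cartilage. FGF7 read 7.84, 8.29, 7.83 and 9.5 against 8.07, 8.12 and 8.43, and FGF10 read 8.12, 7.63, 6.99 and 6.66 against 7.24, 7.79 and 6.57. FGF9 and FGF18 differed by 0.11 ± 0.25 and -0.14 ± 0.28 (SE), FGF1, FGF8 and FGF21 by 0.03, -0.07 and 0.19. In deleted tumor 2 and wild-type tumor 1, the tumors with the highest FGFR2, FGF18 was 6.98 and 7.03, in the middle of its range. FGF2, FGF16, FGF17, FGF22 and FGF23 had no probe under their symbol and were not analysed.

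PSPN, persephin, a ligand of the RET system, was 9.09 in deleted tumor 2 and between 6.77 and 7.36 in the other 6 tumors. Its difference of 0.68 ± 0.51 (SE) thus came from 1 tumor. PROS1, protein S and a ligand of AXL, had no value in deleted tumor 1 for an outlier mark. It read 7.28, 8.04 and 8.54 in deleted tumors 2 to 4 and 8.69, 7.86 and 7.61 in the wild-type tumors.

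Co-receptors help the ligand reach its kinase: 11 of 15 had a kept probe, 9 with a higher and 2 with a lower mean in the deleted tumors, 0 at an unadjusted p below 0.05, with a median of 0.11. Under normexp with 75th percentile scaling 5 of 11 were higher relative to all probes, so the direction of this list is not settled. GFRA2, a RET co-receptor, read 6.45, 6.73, 7.66 and 7.58 against 7.98, 8.23 and 6.52, with low tumors in both groups. CD44, a MET co-receptor, read 8.38, 8.65, 8.7 and 8.01 against 7.87, 8.41 and 7.7, a difference of 0.44 ± 0.23 (SE, adjusted p = 0.763, limma). NRP2 was 12.25 in wild-type tumor 3 against 8.83 to 10.83 in the others and differed by -0.81 ± 0.69 (SE). SDC2, SDC4 and GPC1, heparan sulfate proteoglycans that present FGFs, differed by 0.08, 0.25 and 0.14, each within its SE or close to it.

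Of the other receptor kinases, 23 of 39 had a kept probe, 13 with a higher and 10 with a lower mean, and the median difference was 0.01. FLT1 and NTRK3 were the 2 genes with an unadjusted p below 0.05, and 0 were called. FLT1, a VEGF receptor of vessels, read 8.32, 8.12, 8.42 and 8.04 in the deleted and 7.56, 7.97 and 7.98 in the wild-type tumors, a difference of 0.39 ± 0.15 (SE, adjusted p = 0.673, limma). The endothelial list, 7 of 8 genes, had sums of 7947 to 21283 in the deleted and 5787 to 9279 in the wild-type tumors. Its part in the FLT1 level was not tested. NTRK3, a neurotrophin receptor, read 6.59, 6.64, 6.91 and 6.67 against 7.03, 7.01 and 7.04, a difference of -0.33 ± 0.10 (SE, adjusted p = 0.583, limma). Both genes had groups that did not overlap. These 2 of 23 are near the 7.59% of all genes with an unadjusted p below 0.05 and the 8.14% of all probes with separate groups.

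**Figure D4:**
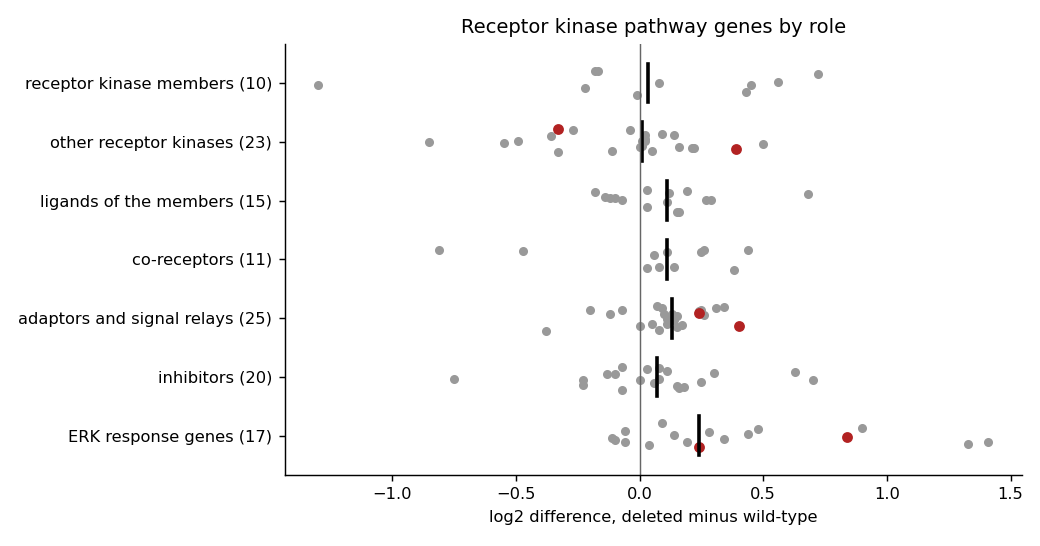
Log2 difference, deleted minus wild-type (horizontal axis), of each gene with a kept probe in the receptor kinase pathway lists, with the number of genes in parentheses, red points for an unadjusted p below 0.05 in limma and a black line at each list's median. The list medians lie between 0.01 for other receptor kinases and 0.24 for ERK response genes, and no gene was called after adjustment.

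Adaptors and relays carry the signal inward: 25 of 32 had a kept probe, 21 with a higher and 4 with a lower mean, with a median of 0.13. Under normexp with 75th percentile scaling, 13 of 25 were higher relative to all probes. The 2 of 25 genes at an unadjusted p below 0.05, near the 7.59% of all genes, were SOS2 and STAT3, and 0 were called. SOS2, an exchange factor for RAS, read 7.55, 7.46, 7.47 and 7.44 against 7.26, 7.33 and 7.14, a difference of 0.24 ± 0.09 (SE, adjusted p = 0.653, limma). STAT3, a transcription factor downstream of several receptors, read 10.78, 10.41, 10.57 and 10.17 against 10.0, 10.04 and 10.22, where deleted tumor 4 was below wild-type tumor 3. Its difference was 0.40 ± 0.16 (SE, adjusted p = 0.678, limma).

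Inhibitors of the pathway did not move together: all 20 that had a probe, of 26, were kept, 13 with a higher and 7 with a lower mean, 0 at an unadjusted p below 0.05, with a median of 0.07. The genes with the smallest p were LRIG3, listed here as an inhibitor, and DUSP6, a phosphatase of ERK that ERK itself induces. LRIG3 lay between 8.52 and 8.62 in the deleted tumors and read 8.51, 8.32 and 7.03 in the wild-type tumors, so its difference of 0.63 ± 0.34 (SE) came mostly from wild-type tumor 3. DUSP6 read 11.18, 11.24, 12.34 and 10.62 against 11.58, 12.52 and 12.18, a difference of -0.75 ± 0.42 (SE).

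The ERK response genes, switched on within minutes to hours of ERK signaling, had the largest median of the pathway lists, at 0.24. A kept probe was found for 17 of 18, 13 with a higher and 4 with a lower mean. Relative to all probes, 11 to 13 of 17 were higher under the 4 other scalings and offsets. The 4 lower in the reported setting were EGR2 (-0.1), FOSB (-0.06), ETV1 (-0.06) and CCND1 (-0.11). DUSP6, counted above with the inhibitors though ERK induces it, differed by -0.75. Whether ERK signaling differed was not tested. The 2 genes at an unadjusted p below 0.05, or 2 of 17 against 7.59% of all genes, were DUSP1 and JUNB, and 0 were called. DUSP1, a phosphatase of MAP kinases, read 7.89, 7.99, 8.1 and 8.51 in the deleted tumors and 7.25, 7.68 and 6.92 in the wild-type tumors. Its groups did not overlap, and the difference was 0.84 ± 0.22 (SE, adjusted p = 0.507, limma). JUNB, a subunit of the AP-1 transcription factor, read 6.91, 6.94, 6.85 and 6.95 against 6.63, 6.65 and 6.73, a difference of 0.24 ± 0.08 (SE, adjusted p = 0.612, limma). Groups were also separate for JUNB, which was dim, and for JUN, another AP-1 subunit, named here after its values were seen. With DUSP1 that makes 3 of 17 genes, against 8.14% of all kept probes. JUN read 14.19, 14.56, 14.03 and 14.48 against 13.61, 13.87 and 11.24. Its difference of 1.41 ± 0.62 (SE) drew most on the low wild-type tumor 3.

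**Figure D5:**
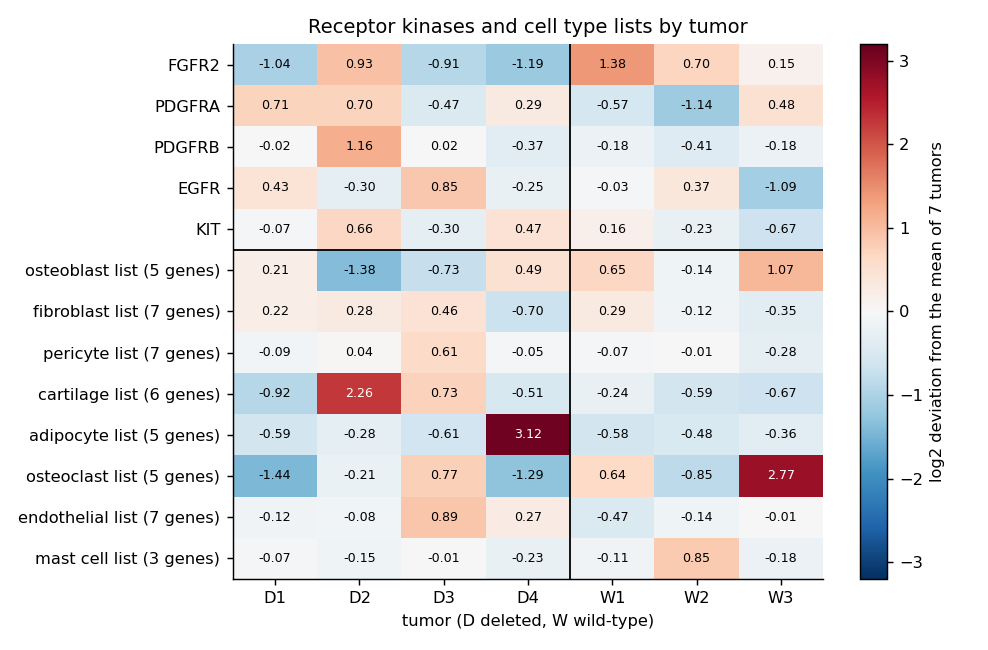
Log2 deviation from the mean of the 7 tumors (color and printed value) for 5 receptor kinase genes, KIT by A_11_P0000019899. Below the line is the median deviation over the genes of each of 8 cell type lists. Columns are deleted tumors D1 to D4 and wild-type tumors W1 to W3. Deleted tumor 2 is high for FGFR2 (0.93), PDGFRB (1.16) and cartilage genes (2.26) and low for osteoblast genes (-1.38). The PDGFRB value is that of A_11_P0000020085, and the second PDGFRB probe was not high there. The adipocyte list stands out in deleted tumor 4 (3.12) and the osteoclast list in wild-type tumor 3 (2.77).

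Summed intensities of some cell type lists differed widely between single tumors. The summed intensity of the adipocyte list, 5 of 6 genes with a kept probe, was 15414 in deleted tumor 4 against 824 to 1049 in the other 6. ADIPOQ, PLIN1, CIDEC and LPL were highest in that tumor, LPL was second highest in deleted tumor 3 at 8.68, and LEP was lowest in deleted tumor 4 at 7.96. The genes PDGFD and FGF7 were both highest in that tumor. Osteoclast genes summed to 227494 in wild-type tumor 3, where EGFR and KIT were lowest, and to 10654 to 69731 elsewhere. In the leukocyte list, 8 of 9 genes had a kept probe, 4 with a higher and 4 with a lower mean and a median of -0.03. An unadjusted p below 0.05 was found for 2 of the 8, against 7.59% of all genes, the T cell receptor subunits CD3D and CD3E. The macrophage genes did not share a direction: CD68 differed by -0.74, CSF1R by -0.55, AIF1 by -0.17 and CD163 by 0.14. CD3D lay between 8.61 and 10.02 in the deleted and between 7.27 and 7.85 in the wild-type tumors, a difference of 1.98 ± 0.37 (SE, adjusted p = 0.434, limma). Of the muscle list 5 of 7 genes had a kept probe, with sums of 12169 to 25256 and 14945 to 16812. The part of these cells in the receptor kinase levels was not tested.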

How the data were processed

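Total RNA of 7 canine primary osteosarcomas was hybridized by the authors to 1-color Agilent arrays. Per the file headers, the deposited tables give linear spot and local background intensity from Agilent Feature Extraction 10.7.3.1, and an intensity that this program processed within each array. The authors' normalization and batch correction came after these files.

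Here the mean spot intensity was corrected with normexp (offset 50, limma 3.58.1, R 4.3.3) and quantile-normalized, and log2 was taken. Controls and 144 outlier-marked values were left out, and probes well above background on at least 3 arrays were kept, 32309 of 43603 (30280 to 34538 per array, 0 spots saturated). The number of arrays limits the precision. Groups were compared with limma (two-sided, Benjamini-Hochberg over all kept probes), and single values with the exact permutation test over 35 splits. Symbols are those of the files, and 1842 probes were named through RefSeq (UU_Cfam_GSD_1.0).

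The receptor genes and all lists were chosen with earlier results of these data known. Named were all probes of the 10 genes, the 3 genes most like each of the 3 widest-ranging ones, the 2 smallest p-values of each pathway list, ligands, co-receptors and genes at the ends of marker lists. Alternatives were other background corrections, scalings, filters, tests, covariates, blocks and left-out tumors. On simulated data with 200 of 32309 probes changed, limma recovered 61% of changes of 1 log2 unit, 91.5% of changes of 2 and 96.5% of changes of 3. It called 19, 29 and 19 unchanged probes there, and 0 when 0 were changed. The simulated noise was independent between probes and tumors, without shared slides, ages or cell content. These shares average over probes of all spreads, so they do not give the power for widely varying genes such as FGFR2 (SE 0.57). A probe sequence and some marker genes are not reported here.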

Additional observations from a re-analysis of the deposited data

Results flagged for a closer look

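A deleted tumor standing far from the other 3 of its group was looked for in 36 groups of 4 values, by the gap to its nearest neighbor as a share of the whole range (Dixon's check), and 3 passed, where chance at 1 in 20 gives 1.8. The FGFR2 probe A_11_P050201 passed with a share of 0.868, deleted tumor 2 being high, and the second FGFR2 probe, A_11_P051586, did not pass, with 0.766. The median deviation of the adipocyte list passed with 0.913, deleted tumor 4 being high. The median deviation of the epithelial list passed with 0.867, deleted tumor 2 being high within values of -0.04 to 0.05 over 3 genes. The difference by DLG2 status was also tested for dependence on the sex label, with 1 wild-type tumor labeled MC. In limma 0 of 32303 probes passed at an adjusted p below 0.1, with 2565 at an unadjusted p below 0.05. Of the 19 receptor kinase probes 2 had an unadjusted p below 0.05, and their smallest adjusted p was 0.347.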

How the results depend on the processing

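No receptor kinase probe was called under any of 23 alternatives. Of 230 alternative values for the 10 gene differences, 221 kept their direction, 9 reversed and 0 passed the threshold. Reversed were EGFR with slide as a block (-0.0978), MET with age as a covariate (-0.0763), and AXL (0.338) under normexp with 75th percentile scaling. RET, at -0.0146, reversed with age (0.0411), session (0.0196), slide as a block (0.0736), that scaling (0.561) and left-out tumors (-0.0387 to 0.0391). That scaling moved the median of all probes by 0.316. Relative to it the differences were 0.24 for RET, 0.02 for AXL, 0.4 for MET, -1.92 for FGFR2 and -0.43 for ERBB2. Genes with separate groups were 1 in the reported setting, 0 under that scaling and with quantile-normalized processed intensity, and 1 to 2 with a tumor left out: FGFR1 joined ERBB2 without deleted tumor 1, FGFR2 without deleted tumor 2, PDGFRB without deleted tumor 4 and PDGFRA without wild-type tumor 3. Over all probes, 0 were called as reported, with 2349 at an unadjusted p below 0.05. There were 3 with 1 probe per gene, 8 with array weights, 4 with trend and robust options, 1 with offset 16, 23 under normexp with 75th percentile scaling, 10 and 4 with processed intensity under 75th percentile and quantile scaling, 1 with slide as a random block, and 0 to 46 with a tumor left out, 46 without wild-type tumor 3. The cause was not tested. No paired analysis was possible because the labels give no replicate numbers that the groups share. Dim probes near background (MET, RET, 2 of EGFR) limit what can be read of those genes.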

Other observations

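After the values were seen, the level of each of the 10 genes was set against the age of the dog over the tumors. Over all tumors FGFR2 followed age most closely, with r = 0.87 (exact permutation p = 0.00794, adjusted over 10 genes 0.0794, n = 7) and Spearman's rho = 0.83 (exact permutation p = 0.0278, adjusted 0.278). Without wild-type tumors 1 and 2, whose ages lie farthest from the median (deleted tumor 3 as far as the latter), r was 0.74 over 5 tumors. With 5 tumors r is unstable: for PDGFRA it went from -0.37 over 7 tumors to 0.92 without the same 2. The 3 oldest dogs, wild-type tumors 1 and 2 and deleted tumor 2, had the 3 highest FGFR2 levels. Age differed between the groups, 8 to 12 years in the wild-type and 6 to 9 years in the deleted dogs, and 3 or 4 tumors are too few for a value within a group, so age and DLG2 status cannot be told apart here. Among the other 9 genes the next strongest was ERBB2, at r = 0.68 (exact permutation p = 0.1, adjusted 0.427, n = 7) and 0.24 without the same 2 tumors.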
